A study of Mus musculus with 9 samples.

Results

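Axon guidance ligands and their receptors were examined in the endothelial lining of the mouse thoracic aorta. The genes were chosen by name, as every symbol of the array annotation that belongs to semaphorins of classes 3 to 7, plexins, Eph receptors, ephrins, Slits, Robos, Unc5 receptors and netrins. This gave 63 genes, 33 ligands and 30 receptors, among 30142 named genes on the array. The rule uses names and no measured value.

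Each sample was 1 thoracic aorta of a female mouse, whose luminal lining was lysed by flushing the vessel, and RNA was hybridised to a whole-transcriptome array. ACDiEKO mice carried floxed alleles of Mef2a, Mef2c and Mef2d, which encode MEF2 transcription factors, and Cdh5-CreERT2, a recombinase that tamoxifen activates in cells that express the endothelial cadherin Cdh5. Controls were littermates with the same floxed alleles and no Cdh5-CreERT2. Both groups received 5 daily tamoxifen injections at 10 weeks of age, so tamoxifen is shared, whereas recombinase and deletion cannot be told apart. The harvest is given as 7 days after the first injection in the series text and as 14 days in the sample protocols. There were 5 ACDiEKO and 4 control arrays. ACDiEKO replicates 1 and 2 differed by a robust SD of 0.07 log2 units over bright features, against 0.27 to 0.40 in the other 15 pairs of arrays from 1 group, and were averaged and counted as 1 sample. The comparison therefore rests on 4 ACDiEKO and 4 control samples. The number of arrays limits the precision.

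These families were named for steering growing axons, and endothelial cells use the same signals. Semaphorins act through plexins, with neuropilins as coreceptors for most secreted class 3 members, and mostly repel cells or loosen their adhesion. Ephrins are bound to the membrane and signal at cell contacts through Eph receptor tyrosine kinases, and ephrin-B2 with EphB4 marks the arterial and venous sides of the vascular tree. Slits signal through Robo receptors, and netrins through DCC, neogenin and UNC5 receptors, of which UNC5B is the endothelial one.

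Levels are deposited log2 values, and a difference is the ACDiEKO mean minus the control mean in those log2 units. Because values reached 19.34, above the range of a 16-bit scanner, an unstated scaling step was applied and no difference is turned into a fold. A gene was tested where at least 4 samples lay above 6.17, the median of the whole table. The 5222 negative control features of the array had a median of 7.42 and a 95th percentile of 12.06, so passing 6.17 does not by itself show expression. Every gene of these families that passed limma lay below that 95th percentile in all samples. In flushed RNA of a vessel lining, fewer cells of a type and less RNA per cell cannot be told apart.

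Mef2a, Mef2c and Mef2d, the floxed genes, had means no lower in ACDiEKO than in controls. The differences were 0.12, 0.06 and 0.23 and did not pass (limma adjusted p = 0.44, 0.659 and 0.111). ACDiEKO samples measured 13.61 to 13.96, 9.86 to 10.11 and 10.42 to 10.68 for these genes, and controls 13.55 to 13.76, 9.78 to 9.99 and 10.15 to 10.38. Mef2d passed after quantile normalization (limma adjusted p = 0.0366). The probes are not limited to the floxed exons, so these levels do not check the genotype labels. Most smooth muscle markers (8 of 11 tested) and all dividing-cell markers were higher in ACDiEKO, with values after the gene results.

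Of the 63 genes, 35 were tested, and 9 passed limma at an adjusted p of 0.05, 3 higher and 6 lower in ACDiEKO. That is 25.7% of the tested members, beside 16.3% of all 16361 genes tested. By direction it is 8.57% higher and 17.1% lower, beside 8.91% and 7.37% of all genes. The median difference was -0.02 in the members and -0.03 in all genes tested.

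The 6 genes that fell were the Eph receptors Epha4 and Ephb4, the secreted ligands Slit2 and Ntn1, and the membrane-bound semaphorins Sema4d and Sema4b. The 3 that rose were the netrin receptor Unc5b, the membrane-anchored semaphorin Sema7a and the plexin Plxnb2. Ligands accounted for 4 of the falls and 1 of the rises among 19 tested (median difference -0.46), and receptors for 2 of each among 16 tested (median 0.09). The ranges of the ACDiEKO and control samples did not overlap in 14 of the 35 tested members, 5 above and 9 below, beside 23.0% of all genes tested (12.0% above and 11.0% below).

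**Figure D1:**
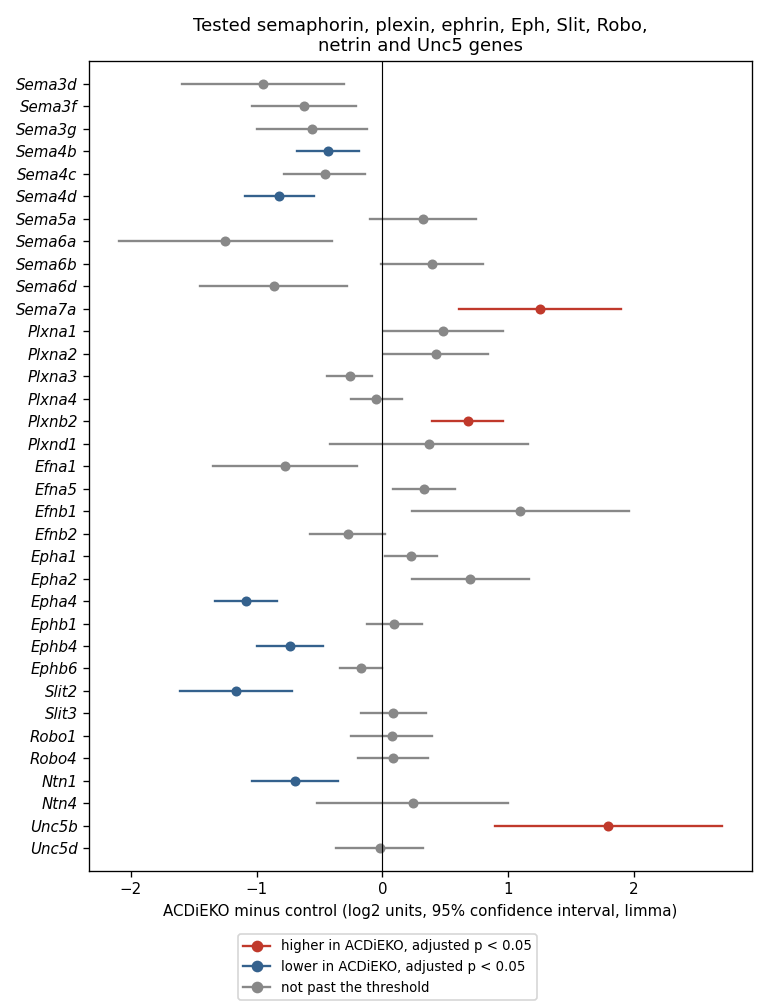
Difference of each of the 35 tested genes, ACDiEKO minus control, in log2 units, with the 95% confidence interval from limma. Red marks the 3 genes higher and blue the 6 genes lower in ACDiEKO at an adjusted p of 0.05, and grey the 26 that did not pass; Unc5b lies farthest to the right at 1.80.

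Promoter sequences of the genes that passed are shown because MEF2 factors bind DNA and because Klf2 and Klf4, flow-responsive factors, lie downstream of MEF2. RefSeq promoters (GRCm38.p6) were found for 54 of the 63 genes and for 8 of the 9 that passed. Each window ran from 250 bases before to 50 bases after a start site, and 67 windows were searched on both strands for the MEF2 letters, CTA and TAG with any 4 bases between, and for the KLF letters CCACNCC. The MEF2 letters are palindromic, and the KLF letters read GGNGTGG on the other strand, and no match to one overlapped a match to the other in the windows printed. The MEF2 letters were in 1 of the 67 member windows (1.49%) and in 3.69% of all 32851 promoters (2.98% of those of genes tested). The KLF letters were in 36 member windows (53.7%) and in 32.7% of all promoters (39.0% of those of genes tested). Among the 12 windows of genes that passed, 1 held the MEF2 letters and 4 the KLF letters. The 250 bases before the start site of these 5 windows are given 5′ to 3′ on the gene's strand, with the matched letters in capitals.
Epha4 (chr1:77515089-77515338, minus strand): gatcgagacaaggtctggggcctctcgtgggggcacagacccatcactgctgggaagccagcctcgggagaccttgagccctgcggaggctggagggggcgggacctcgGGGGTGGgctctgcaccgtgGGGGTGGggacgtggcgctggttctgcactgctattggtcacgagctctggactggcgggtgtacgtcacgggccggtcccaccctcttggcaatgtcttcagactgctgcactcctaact
Sema4b (chr7:80198338-80198587, plus strand): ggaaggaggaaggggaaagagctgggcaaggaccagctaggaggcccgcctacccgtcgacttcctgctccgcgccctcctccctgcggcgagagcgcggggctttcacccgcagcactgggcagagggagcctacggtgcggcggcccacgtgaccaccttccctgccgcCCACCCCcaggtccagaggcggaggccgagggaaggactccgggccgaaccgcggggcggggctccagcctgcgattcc
Sema4d (chr13:51739447-51739696, minus strand): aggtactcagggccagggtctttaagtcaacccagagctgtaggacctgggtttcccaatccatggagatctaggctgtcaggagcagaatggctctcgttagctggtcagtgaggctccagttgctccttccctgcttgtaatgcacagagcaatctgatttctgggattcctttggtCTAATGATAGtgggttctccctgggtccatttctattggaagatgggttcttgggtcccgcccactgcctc
Plxnb2 (chr15:89173952-89174201, minus strand): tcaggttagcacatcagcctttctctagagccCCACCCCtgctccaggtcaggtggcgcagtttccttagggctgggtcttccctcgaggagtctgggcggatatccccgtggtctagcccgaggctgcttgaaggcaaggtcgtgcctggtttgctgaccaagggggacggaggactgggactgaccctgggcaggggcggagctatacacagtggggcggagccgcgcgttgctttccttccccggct
Sema7a (chr9:57939862-57940111, plus strand): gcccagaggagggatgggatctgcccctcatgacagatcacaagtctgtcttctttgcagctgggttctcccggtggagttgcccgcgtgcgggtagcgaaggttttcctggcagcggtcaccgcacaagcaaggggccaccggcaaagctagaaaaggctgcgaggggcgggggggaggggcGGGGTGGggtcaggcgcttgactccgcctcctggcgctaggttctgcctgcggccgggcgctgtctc
The only MEF2 match lay at position -71 from 1 of the 3 start sites searched for Sema4d. Epha4 held the KLF letters at 2 places, and matches occurred in genes that fell (Epha4, Sema4b) and in genes that rose (Plxnb2, Sema7a). A match describes the letters in the window and is no measured binding.

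Ephrins and Eph receptors were read first among the families. Of 6 Eph receptors tested, 2 fell, and of 4 ephrins tested none passed limma (2 higher and 1 lower at an unadjusted p under 0.05, which 32.7% of all genes tested met, 15.6% as higher and 17.1% as lower). Values are listed for the averaged ACDiEKO replicates 1 and 2 and then replicates 3, 4 and 5, and for control replicates 1 to 4. Epha4, a receptor that binds ephrins of both classes, measured 10.07, 9.99, 10.03 and 10.04 in ACDiEKO, against 11.02, 10.99, 11.44 and 11.03 in controls. The ACDiEKO samples lay close together and below every control. The difference was -1.09 (SE 0.11, limma adjusted p = 0.000824), and it passed in all 19 alternative settings (adjusted p up to 0.0131). Its KLF letters stand in the first sequence above.

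Ephb4, the venous receptor of ephrin-B2, measured 9.44, 9.58, 9.32 and 9.47 in ACDiEKO, against 10.26, 10.01, 10.45 and 10.02 in controls. Every ACDiEKO sample was lower than every control, by -0.73 on average (SE 0.11, limma adjusted p = 0.00524), also in all 19 alternatives. Efnb2, its arterial ligand, measured 13.26, 13.29, 12.97 and 13.07 in ACDiEKO, against 13.36, 13.55, 13.65 and 13.14 in controls. These ranges overlapped, and Efnb2 did not pass (difference -0.28, 95% interval -0.57 to 0.02, limma adjusted p = 0.179). Whether Ephb4 and Efnb2 differed in their response was not tested.

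The ephrin-A1 gene Efna1 and Epha2, a receptor of that ephrin, missed the threshold with opposite signs. Efna1 measured 9.22, 9.77, 8.99 and 9.74 in ACDiEKO, against 10.81, 9.97, 10.10 and 9.94 in controls, a difference of -0.77 (limma adjusted p = 0.0709) with no overlap of the samples. Epha2 measured 8.83, 9.44, 8.74 and 8.68 in ACDiEKO, against 8.50, 8.38, 8.15 and 7.86 in controls, a difference of 0.70 (limma adjusted p = 0.0502), again with no overlap. Epha2 passed in 5 of 19 alternatives and Efna1 in 1. Efnb1, which binds EphB receptors, differed by 1.10 and did not pass (limma adjusted p = 0.0849), with ACDiEKO samples at 9.34 to 10.19 and controls at 7.89 to 9.67. Without control replicate 1, its highest control, Efnb1 differed by 1.45 (limma adjusted p = 0.0139). It passed in that setting only, 1 of 19 alternatives, and its limma adjusted p reached 0.39 elsewhere. The other tested members of these families were Efna5 (0.33), Epha1 (0.23), Ephb1 (0.10) and the kinase-inactive receptor Ephb6 (-0.17), and none passed.

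Among the Slits and Robos, Slit2 was the member that passed. Slit2, a secreted ligand of Robo receptors, measured 6.58, 6.41, 6.15 and 6.02 in ACDiEKO, against 7.44, 7.95, 7.23 and 7.19 in controls. All 4 ACDiEKO samples were lower than all 4 controls, and they lay close to the filter value of 6.17, with 2 of them below it and all 4 below the negative control median of 7.42. Control replicates 3 and 4 lay below that median too, and the control mean was 7.45. Slit2 was lower in ACDiEKO, and its size of change cannot be measured at that level. The fitted difference was -1.16 (SE 0.19, limma adjusted p = 0.00648), and it passed in all 18 alternatives in which Slit2 was tested. Slit3 measured 6.34, 6.46, 6.50 and 6.88 in ACDiEKO and 6.46 in each control. It did not pass (difference 0.09, limma adjusted p = 0.63).

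The Robo receptors measured here overlapped between the groups. Robo4, the endothelial member, measured 6.66, 6.86, 6.33 and 6.43 in ACDiEKO, against 6.56, 6.47, 6.56 and 6.35 in controls (difference 0.09, 95% interval -0.19 to 0.37, limma adjusted p = 0.658). Robo1 measured 7.22, 6.91, 6.57 and 6.65 in ACDiEKO, against 6.80, 6.79, 6.67 and 6.80 in controls (difference 0.07, 95% interval -0.25 to 0.40, limma adjusted p = 0.747). Both were dim, and their levels lay near the filter value. Slit1, Robo2 and Robo3 were not tested.

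Netrin-1 and its endothelial receptor moved in opposite directions. Ntn1, the secreted laminin-related ligand, measured 8.48, 8.55, 8.41 and 8.59 in ACDiEKO, against 9.33, 9.18, 9.52 and 8.79 in controls. The ACDiEKO samples were tightly grouped below all controls, with a difference of -0.69 (SE 0.15, limma adjusted p = 0.0165). Leaving out ACDiEKO replicate 4 ended the call (-0.66, limma adjusted p = 0.0537).

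Unc5b, the UNC5 receptor of endothelial cells, measured 11.05, 8.95, 10.08 and 9.89 in ACDiEKO, against 8.55, 8.07, 8.29 and 7.88 in controls. Every ACDiEKO sample was higher than every control, and the ACDiEKO samples spread more widely (SD 0.86, against 0.29 in controls). The difference was 1.80 (SE 0.39, limma adjusted p = 0.0184), the largest among the 35 tested members in either direction. The call ended without control replicate 4 (1.69, limma adjusted p = 0.0551) and without ACDiEKO replicate 4 (1.77, limma adjusted p = 0.0564). Ntn4, a netrin of basement membranes, measured 13.16, 11.84, 12.69 and 12.51 in ACDiEKO, against 12.84, 12.63, 12.08 and 11.69 in controls, with overlapping ranges (difference 0.24, limma adjusted p = 0.653). Unc5d differed by -0.02 and did not pass.

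**Figure D2:**
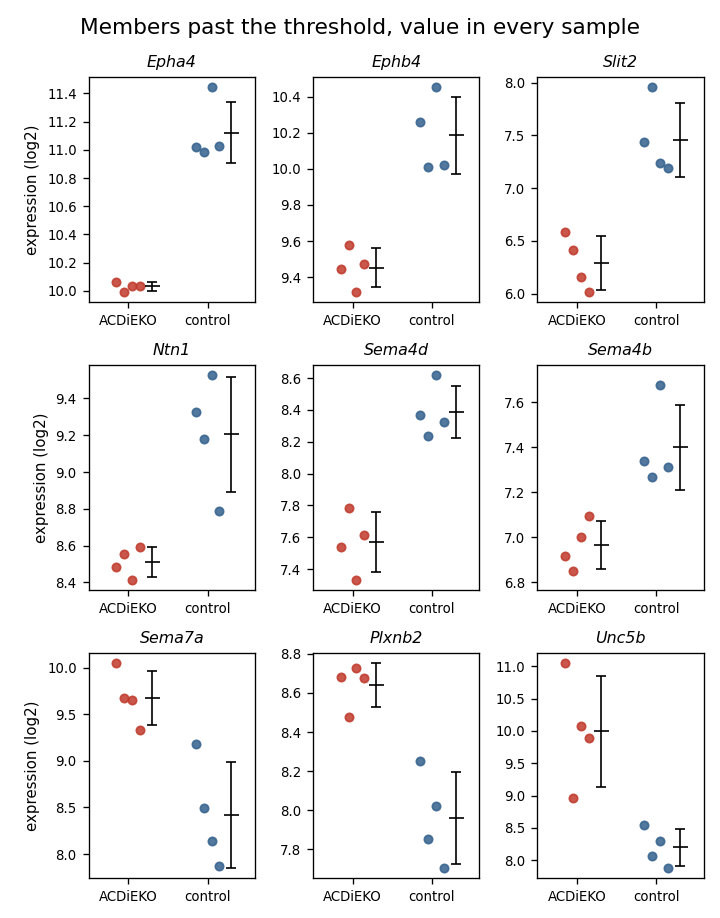
Expression (log2) of the 9 genes that passed limma, with 1 point per sample, ACDiEKO on the left and control on the right of each panel, and a bar for mean ± SD (n = 4 each). Each panel has its own vertical scale; the groups do not overlap in any of the 9, and the ACDiEKO points of Unc5b spread from 8.95 to 11.05.

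Semaphorins were the largest family, with 11 of 19 tested, of which 1 rose and 2 fell (median difference -0.56). At an unadjusted p under 0.05, 1 was higher and 8 were lower, beside 15.6% higher and 17.1% lower of all genes tested. Sema4d, a transmembrane ligand of B-type plexins, measured 7.54, 7.78, 7.33 and 7.62 in ACDiEKO, against 8.37, 8.24, 8.62 and 8.33 in controls. The groups were separate, by -0.82 (SE 0.12, limma adjusted p = 0.00397), and the call held in all 18 alternatives in which Sema4d was tested. Sema4b, another membrane-bound member of class 4, measured 6.92, 6.85, 7.00 and 7.10 in ACDiEKO, against 7.34, 7.27, 7.68 and 7.31 in controls. It was lower in every ACDiEKO sample (-0.43, SE 0.11, limma adjusted p = 0.0285), and it passed in 8 of 18 alternatives, with adjusted p between 0.0105 and 0.13. Both of its group means, 6.97 in ACDiEKO and 7.40 in controls, lay below the negative control median. The call ended without any one of control replicates 1 and 4 and ACDiEKO replicates 3 and 4 (limma adjusted p = 0.0509, 0.0518, 0.0708 and 0.0678).

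Sema7a, a lipid-anchored semaphorin that signals through plexin C1 and integrins, measured 10.05, 9.67, 9.65 and 9.33 in ACDiEKO, against 9.18, 8.49, 8.14 and 7.87 in controls. The highest control came close to the lowest ACDiEKO sample, without overlap. The difference was 1.25 (SE 0.28, limma adjusted p = 0.0203). It no longer passed without control replicate 3 (1.16, limma adjusted p = 0.0567) or ACDiEKO replicate 4 (1.26, limma adjusted p = 0.0569), without ACDiEKO arrays 1 and 2 (1.13, limma adjusted p = 0.0577), or with no filter on dim genes (limma adjusted p = 0.0519). Plxnc1, its plexin receptor, was not tested, at 5.69 in ACDiEKO and 5.63 in controls.

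Secreted class 3 semaphorins, ligands of neuropilin and plexin complexes, gave no call among 3 tested. At an unadjusted p under 0.05, 3 were lower, as were 17.1% of all genes tested. Sema3f, which binds neuropilin-2, measured 11.09, 10.62, 10.46 and 10.80 in ACDiEKO, against 11.48, 11.01, 11.71 and 11.26 in controls (difference -0.62, limma adjusted p = 0.0521). Sema3g, known from arterial endothelium, measured 7.85, 8.03, 7.26 and 7.35 in ACDiEKO, against 7.89, 8.25, 8.30 and 8.29 in controls (-0.56, limma adjusted p = 0.0813). In both, 1 or more ACDiEKO samples reached the control range. Sema3d ranged from 8.12 to 9.20 in ACDiEKO and from 8.87 to 9.89 in controls (-0.95, limma adjusted p = 0.0544). It passed in 5 of 19 alternatives (limma adjusted p up to 0.283). With title numbers as a replicate block it passed (-1.03, limma adjusted p = 0.0291), in a fit that counts the near-identical ACDiEKO arrays as separate samples. Sema3a, the classical repellent of sensory axons, and Sema3e, the ligand of plexin D1, stayed below the filter, Sema3a at 5.38 in both groups and Sema3e at 4.80 in ACDiEKO and 4.81 in controls.

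Class 6 semaphorins, transmembrane ligands of A-type plexins, gave no call among 3 tested. Sema6a measured 8.72, 9.80, 8.38 and 9.04 in ACDiEKO, against 9.88, 9.77, 11.07 and 10.19 in controls, a difference of -1.25 that did not pass (95% interval -2.09 to -0.40, limma adjusted p = 0.0538). ACDiEKO replicate 3 alone reached the controls, and without it the difference was -1.52 (limma adjusted p = 0.0259). Sema6d lay at 9.28 to 10.31 in ACDiEKO and at 10.38 to 11.24 in controls (-0.87, limma adjusted p = 0.0539). It too passed without ACDiEKO replicate 3 (-1.02, limma adjusted p = 0.0412). Sema6a and Sema6d each passed in only 3 of 19 alternatives (limma adjusted p up to 0.235 and 0.198). Sema6b differed by 0.40, Sema4c by -0.46 and Sema5a by 0.33, and none of these passed.

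Plexins, the semaphorin receptors, gave 1 rise among 6 tested. Plxnb2, a receptor of class 4 semaphorins, measured 8.68, 8.48, 8.73 and 8.68 in ACDiEKO, against 8.25, 7.86, 8.02 and 7.71 in controls. All ACDiEKO samples were above all controls (difference 0.68, SE 0.12, limma adjusted p = 0.00905), opposite in sign to the ligand gene Sema4d. Plxnb1, the other receptor of Sema4d, was not tested, at 5.58 in ACDiEKO and 5.56 in controls.

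Plxnd1, the endothelial receptor of semaphorin 3E, measured 13.69, 13.89, 12.47 and 13.26 in ACDiEKO, against 12.68, 12.80, 13.66 and 12.68 in controls. The widest values of both groups crossed (difference 0.37, 95% interval -0.42 to 1.16, limma adjusted p = 0.488). The A-type plexins Plxna1 (0.49), Plxna2 (0.43), Plxna3 (-0.26) and Plxna4 (-0.05) did not pass. Plxna1 ranged from 8.72 to 9.26 in ACDiEKO and from 7.89 to 8.81 in controls.

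**Figure D3:**
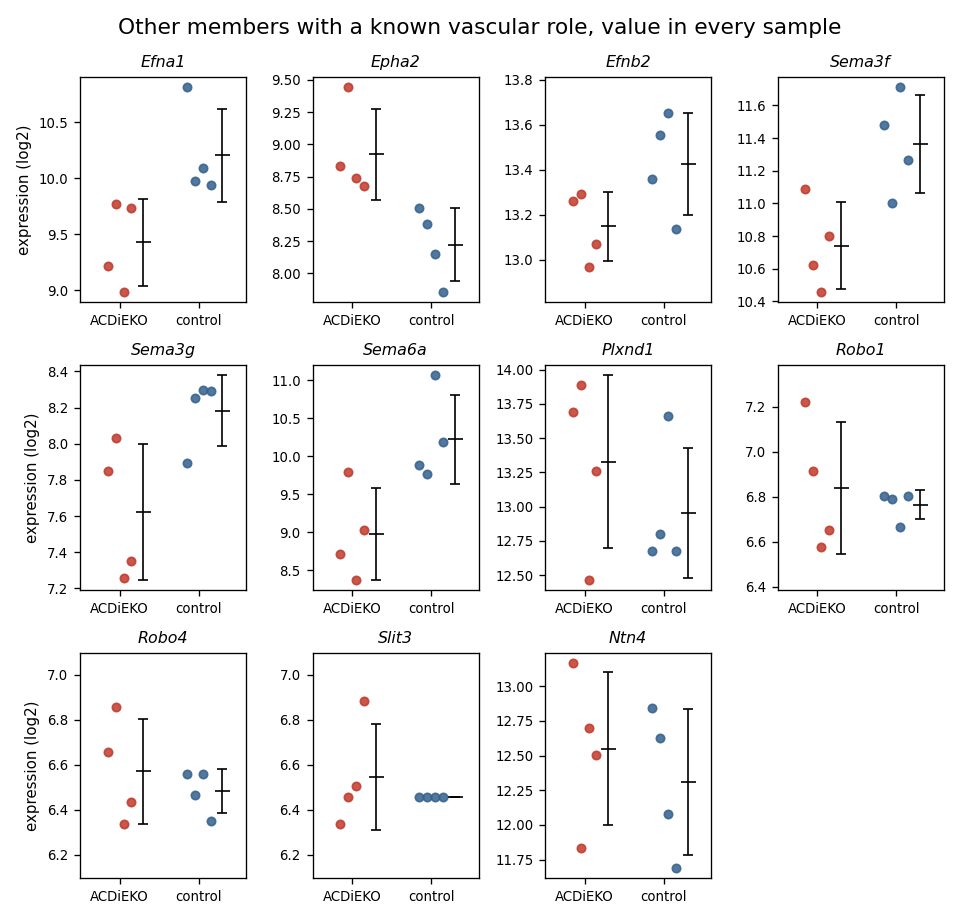
Expression (log2) of 11 further genes with a known vascular role, none of which passed limma, drawn with 1 point per sample, ACDiEKO left of control, and mean ± SD (n = 4 each) on a scale of its own per panel. Efna1 and Epha2 show no overlap of the groups, while Robo1, Robo4, Slit3, Ntn4 and Plxnd1 overlap.

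The remaining 28 genes were not tested because fewer than 4 samples lay above the filter value. They were Efna2, Efna3, Efna4, Efnb3, Epha3, Epha5, Epha6, Epha7, Epha8, Epha10, Ephb3, Plxnb1, Plxnb3, Plxnc1, Robo2, Robo3, Slit1, Ntn5, Unc5a, Unc5c and 8 semaphorins, Sema3a, Sema3b, Sema3c, Sema3e, Sema4f, Sema4g, Sema5b and Sema6c. Their values ran from 4.51 to 6.78, and the group means of 27 of them differed by less than 0.15. The exception was Sema3c, at 5.71, 5.96, 6.42 and 6.78 in ACDiEKO, against 5.77, 5.96, 5.96 and 5.96 in controls. In 24 of the 28 the same value recurred, to the 4th decimal, in at least 4 of the 9 arrays, as in 5 of the 35 tested genes (Epha1, Ephb1, Sema5a, Sema6b and Slit3). Such values carry little information on differences. Ntn3 and Sema4a share their array features with other genes and are not reported, and Ephb2 was not analysed here.

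Coreceptors and intracellular partners of these receptors were read from a separate list, of which 55 of 58 genes were found and 44 tested. Of these, 4 rose and 8 fell, 27.3% of those tested (median difference -0.06), beside the 16.3% of all genes given above. Dpysl3, a cytosolic phosphoprotein of the collapsin response family, measured 13.54, 12.48, 12.88 and 12.39 in ACDiEKO, against 10.13, 9.47, 9.39 and 9.35 in controls. Its difference of 3.24 (SE 0.28, limma adjusted p = 0.000543) exceeded that of any tested ligand or receptor. Vasp, which promotes actin filament growth, rose by 0.92 (limma adjusted p = 0.00895), with ACDiEKO samples at 8.25 to 8.88 and controls at 7.37 to 7.86. Its control replicates 2 and 4 lay below the negative control median.

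Lower in ACDiEKO were Nck1, an adaptor that couples guidance receptors to actin (-1.44, limma adjusted p = 0.00156), and Arhgef15, an endothelial member of the ephexin family (-1.30, limma adjusted p = 0.00376). Nck1 lay at 9.79 to 10.64 in ACDiEKO and at 11.53 to 11.65 in controls, and Arhgef15 lay at 9.94 to 10.63 in ACDiEKO and at 11.22 to 11.85 in controls. Flrt1, a leucine-rich repeat membrane protein of a family that binds UNC5 receptors, measured 6.46 to 7.23 in ACDiEKO and 8.21 to 9.30 in controls (-1.85, limma adjusted p = 0.00516), with every ACDiEKO sample below the negative control median. Nrp2, the neuropilin of class 3 semaphorins that was measured, was dim, at 6.56 to 7.28 in ACDiEKO and 6.02 to 6.56 in controls, and did not pass (0.57, limma adjusted p = 0.0748). Nrp1 was not analysed here. The netrin receptors Dcc, below the filter at 4.57 in both groups, and Neo1, at 6.84 in both (limma adjusted p = 0.999), gave no call.

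The numbers that open the array titles put control replicates 3 and 4 in a run apart from all other arrays, and what the run stands for is not stated. With only controls 1 and 2, which share the run of the ACDiEKO arrays, 0 members were higher and 5 were lower by limma, beside 3.95% higher and 2.96% lower of all genes tested in that fit. At an unadjusted p under 0.05, 4 members were higher and 12 lower, beside 13.2% and 12.3% of all genes (25.4% in either direction). With the run as a term, 0 were higher and 4 lower by limma, beside 5.70% and 4.64% of all genes. Here 4 members were higher and 10 lower at an unadjusted p under 0.05, beside 13.8% and 13.1% of all genes (26.9% in either direction). The genes Epha4, Ephb4, Slit2 and Sema4d passed both ways. With controls 1 and 2 alone, the difference was 0.59 for Plxnb2 (limma adjusted p = 0.0639), 1.69 for Unc5b (0.127), 0.84 for Sema7a (0.116) and -0.34 for Sema4b (0.0899), and none of these passed. Ntn1 passed with controls 1 and 2 alone and not with the run as a term (-0.74, limma adjusted p = 0.053). None of the 3 rises passed in either fit. Among the partner genes, 5 passed in each of these fits, against 12 with all samples. Vasp passed in neither (0.82 in both, limma adjusted p = 0.0877 with controls 1 and 2 alone and 0.051 with the run as a term). Calls over all genes were also fewer, at 6.91% with controls 1 and 2 alone and 10.3% with the run as a term, against 16.3% with all samples.

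**Figure D4:**
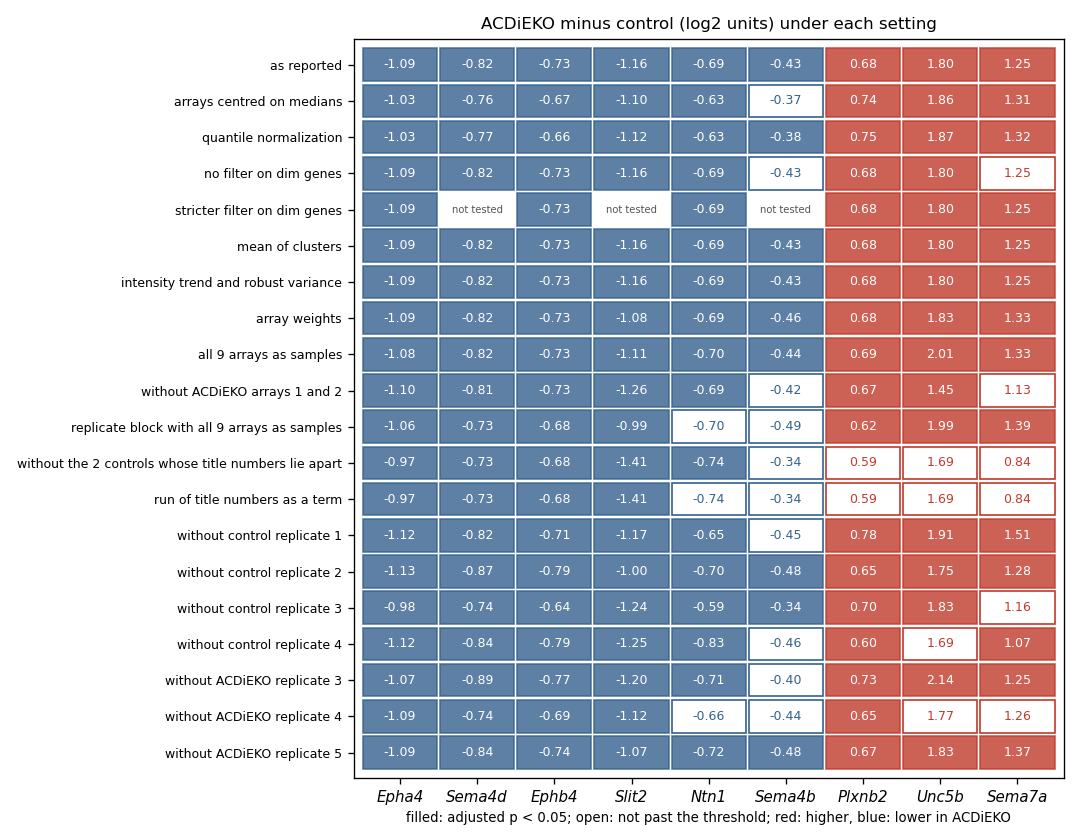
Difference of the 9 genes that passed (ACDiEKO minus control, log2 units) under the reported setting and 19 alternatives, one column per gene and one row per setting. Filled cells passed limma at an adjusted p of 0.05 and open cells did not; Epha4, Sema4d, Ephb4 and Slit2 are filled wherever they were tested, and no cell changes sign.

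Marker genes of the cell types that a flushed aorta could hold were read in the same way. All 9 endothelial markers found were tested, 2 higher and 3 lower, and all but Kdr were bright. Emcn (14.78 in ACDiEKO, 11.06 in controls) and Kdr (7.92 and 6.96) were higher, and the control mean of Kdr lay below the negative control median of 7.42. Cldn5 (12.55 in ACDiEKO, 16.15 in controls), Tek (13.43 and 15.35) and Pecam1 (17.23 and 17.60) were lower. Cdh5, at 15.83 in ACDiEKO and 15.59 in controls, did not pass. Smooth muscle markers were higher in 8 of 11 tested, with the largest differences in Tagln (3.82), Myl9 (3.68) and Acta2 (3.19). Myh11 (-0.04), Cnn1 (-0.27) and Mylk (0.43) did not pass, and Des was not tested. The mean of the 12 genes of the list ranged from 9.57 to 10.53 in ACDiEKO and from 8.23 to 9.19 in controls, without overlap. The mean of 5 genes of dividing cells ranged from 10.35 to 11.29 in ACDiEKO and from 6.71 to 7.12 in controls. Means of leukocyte markers were 7.01 to 9.14 in ACDiEKO and 6.61 to 7.32 in controls, with ACDiEKO replicate 5 the highest, and no leukocyte marker passed. Means of fibroblast markers were 8.36 to 9.27 in ACDiEKO and 8.84 to 9.26 in controls, with 1 of 6 lower. Means of brown fat markers were 7.36 to 10.16 in ACDiEKO and 8.64 to 11.26 in controls, with no call. Means of mesothelial markers were 6.41 to 8.45 in ACDiEKO and at most 7.36 in controls, again with no call among 2 tested. Of the neuron list, Stmn2 was the only member of 7 above the filter and was lower in ACDiEKO (7.69, against 10.43 in controls), and 3 Schwann markers found lay below the filter. Most smooth muscle markers and the dividing-cell markers moved with genotype beside every result above, and their part in it was not tested.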

How the data were processed

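Per the labels, 5 ng of RNA from each aorta was amplified with the WT Pico protocol and hybridised to a Clariom D mouse array. Values were deposited by the authors on a log2 scale after RMA, per the submitters' processing notes, with its version, the genome build and the annotation not given in the sources used here. RMA subtracts background, brings arrays to a common distribution and combines the probes of a transcript cluster. Over the transcript clusters, array medians still ran from 5.990 to 6.029 in ACDiEKO and from 6.034 to 6.109 in controls, without overlap. The reported differences are not adjusted for this offset.

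Array controls (6732 features) were left out of 72688. Of 65956 clusters, 30604 carried 1 symbol, 827 of which were updated through gene IDs (GRCm38 RefSeq), and 2146 carried several. The brightest cluster per symbol gave 30142 genes. Among the members, Ephb1 alone had more than 1 cluster. Genes with at least 4 of 8 samples above the table median (6.17) were tested, 16361 in all.

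The 2 genotypes were set against each other in limma 3.58.1 under R 4.3.3, with lmFit and eBayes, two-sided, with Benjamini-Hochberg adjustment over all genes tested. The fit was also run on data with known answers. It recovered 77.4% of planted changes of 1 log2 unit and 97.2% of those of 2, with 5.6% false calls. Smaller changes, as reported for Sema4b and Plxnb2, were not planted. The titles of 2 controls carry the number 3, and the second of them is called control replicate 4. Genes given in every sample were those past the threshold and the tested ones of 18 fixed by name for a role in vessels; Sema3a and Sema3e, not tested, are given as group means. Sema3c was added after its values were seen. Also named were the 5 largest differences among the other tested members and, in the partner list, the neuropilins and the 6 genes with the smallest p. Of these 6, 1 is not reported here. Members, lists and tests were chosen with earlier results of these data known. Alternatives were other scalings, filters, cluster rules, variance models, weights, sample sets and blocks. Figures were drawn with matplotlib 3.10.9.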

Additional observations from a re-analysis of the deposited data

Results flagged for a closer look

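The 20 genes given in every sample, each in ACDiEKO and in control, make 40 groups of 4 samples. The Slit3 controls, at 6.46 in each, have no spread and could not be checked. Among the other groups, 4 held 1 sample set apart from the rest by Dixon's test at its 95% critical value. Chance gives such a result in about 1 of 20 groups. All 4 were control samples, and 3 of them were control replicate 3. It measured 11.44 for Epha4, against 10.99 to 11.03 in the other controls, and without it the Epha4 difference was -0.98 and still passed limma. It measured 13.66 for Plxnd1, against 12.68 to 12.80 in the other controls, and it measured 6.67 for Robo1, against 6.79 to 6.80. Control replicate 1 measured 7.89 for Sema3g, against 8.25 to 8.30 in the other controls.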

How the results depend on the processing

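Of 654 values recomputed for the named genes under 19 alternative settings, 593 kept their direction and their side of the limma threshold, 28 newly passed, 27 no longer passed and 6 changed sign. The sign changes were all in genes near no difference: Robo1 without ACDiEKO arrays 1 and 2 (-0.0526), Slit3 with the replicate block (-0.0712) and without ACDiEKO replicate 5 (-0.0238, with -0.0238 to 0.118 over single arrays left out and 0.157 without ACDiEKO arrays 1 and 2), Robo4 without ACDiEKO replicate 3 (-0.0086, with -0.0086 to 0.166 over single arrays left out), and Ntn4 both without the 2 controls whose title numbers lie apart and with the run as a term (-0.18). As reported, 3 members were higher and 6 lower, and 12 partner genes passed. After quantile normalization, 5 members were higher and 6 lower, beside 18.3% of all genes in either direction. With all 9 arrays as samples, 5 members were higher and 12 lower and 19 partner genes passed, beside 22.6% of all genes. That fit counts the near-identical arrays as separate samples. Under the stricter filter (75th percentile, 8.42), which tested 21 members, 4 members were higher and 7 lower (52.4%), beside 22.7% of all genes. A gene can pass that filter through the samples of 1 group alone, as Plxnb2 did, so these shares give no support to the calls. Of the reported member calls, 6 were kept under the stricter filter, and Slit2, Sema4b and Sema4d were not tested. There 7 partner genes passed, and Flrt1 and Vasp, which passed as reported, were not tested. Without the 2 controls set apart by title number, and likewise with the run as a term, 0 members were higher by limma (4 at an unadjusted p under 0.05) and 5 partner genes passed, while calls over all genes fell to 6.91% and 10.3%, against 16.3%, and the cause was not tested. Leaving out 1 sample at a time gave 1 to 5 members higher, 5 to 8 lower and 8 to 14 partner genes, beside 9.81% to 14.7% of all genes. Without control replicate 1 there were 5 members higher (13.8% of all genes called), and without ACDiEKO replicate 4 there was 1 (9.81% of all genes called). Centring the arrays gave 4 members higher and 5 lower, with 1843 of all genes higher and 961 lower, against 1457 and 1205 as reported, and quantile normalization gave 1963 and 1038. The replicate numbers of the titles did not pair the arrays (correlations of deviations between arrays of the same number -0.06, -0.08, 0.02 and -0.02). With them as a replicate block over 9 arrays, 8 members passed, 3 higher and 5 lower, beside 14.3% of all genes. ACDiEKO replicates 4 and 5 share their number with no control, so they do not inform the difference in the block fit. The block fit also counts the near-identical arrays as separate samples. In that fit, calls for Ntn1 (-0.70, limma adjusted p = 0.0855) and Sema4b (-0.49, limma adjusted p = 0.0661) ended, while Sema3d (-1.03, limma adjusted p = 0.0291) newly passed. Genes near the filter value carry little signal over background, which bounds what can be said of Slit2, Sema4b, Slit3, Robo1, Robo4 and, in ACDiEKO, Flrt1.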
